A study of Mus musculus with 10 samples.

Results

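The genes described here are 10 transcripts that astrocytes are known to induce when brain tissue is injured: Lcn2, Cd44, S1pr3, Steap4, Aspg, Osmr, Hspb1, Ptx3, Emp1 and Cd109. They were chosen by name, and each was read from the row of the array table that names it alone, so that 10 of the 30142 genes tested are described. Every one of them had 1 such row. RNA came from mouse brain 7 days after a controlled cortical impact, a brain injury model in which a driven tip dents the bared cortex on one side, here to a depth of 2 mm. Ipsilateral tissue (5 samples) was taken at the impact site, and contralateral tissue (5 samples) from the matching region of the uninjured hemisphere. Adult mice, male and female, were used at 8 to 12 weeks of age, and no strain, transgene or drug is named in the labels. Both groups therefore come from impacted animals, and no sham-operated or uninjured mice were among the samples. The samples are labelled as biological replicates, without saying whether equal numbers mark 1 mouse, so that p-values measure the spread between samples.

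Astrocytes respond to injury by enlarging their filament skeleton and switching on a set of secreted, surface and metabolic genes, a state called reactive. In mouse studies, transcripts induced by both inflammation and ischaemia were called pan-reactive, those induced mainly by inflammation A1-type, and those induced mainly by ischaemia A2-type. Lcn2, Cd44, S1pr3, Steap4, Aspg, Osmr and Hspb1 belong to the pan-reactive set, and Ptx3, Emp1 and Cd109 to the A2-type set. None of them is made by astrocytes alone. Vascular cells, myeloid cells or fibroblasts also express several of them.

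Whole-transcript arrays were used, 1 per sample, and values are log2 signals, so that a difference of 1 is a factor of 2. Precision is limited by the 5 arrays per side. The median signal over all rows of the table was 4.79 to 4.84 on the ipsilateral arrays and 4.71 to 4.77 on the contralateral ones. The brightest neuronal and astrocytic markers, Snap25 (18.18 ± 0.25 ipsilaterally and 18.32 ± 0.17 contralaterally, SD, n = 5 each) and Slc1a2 (17.40 ± 0.22 and 17.55 ± 0.10), were far above those medians on both sides. In limma, 369 genes were called higher and 1305 lower in ipsilateral tissue at an adjusted p under 0.05. With each array centred on its median the split was 232 higher and 2623 lower.

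All 10 reactive astrocyte genes had a higher mean in ipsilateral tissue, and none of them passed the test over all genes. The log2 fold changes ran from 0.14 for Hspb1 to 1.30 for Osmr, with a median of 0.50, against a median of 0.02 over all genes tested. A positive log2 fold change was found for 55.8% of all genes. The smallest adjusted p was 0.0797, for Aspg. The rate of called genes was 1.22% for higher and 4.33% for lower. At an unadjusted p under 0.05, 7 of the 10 differed, all upward, against 10% of all genes upward (3020 of 30142) and 21.3% in either direction. That 7 became 3 without ipsilateral replicate 5, and 4 without ipsilateral replicate 4 or without contralateral replicate 4. Cd44 and Osmr had a log2 fold change of at least 1, as did 0.61% of all genes.

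The difference between sides was carried unevenly by the ipsilateral samples. For every one of the 10 genes, ipsilateral replicates 4 and 5 were the 2 highest of the 10 arrays, an arrangement that 9.78% of all genes showed. The mean signal of the 10 genes was 6.34 and 6.57 on these arrays and 5.38, 5.55 and 5.58 on ipsilateral replicates 1, 2 and 3, against 5.16, 5.50, 5.39, 5.22 and 5.24 on the contralateral arrays. Ipsilateral replicate 1 thus lay within the contralateral range, and replicates 2 and 3 just above it. The spread was larger on the ipsilateral side for all 10 genes, and for 63.6% of all genes. The ipsilateral SD was 1.44 (S1pr3) to 6.81 (Lcn2) times the contralateral one. The limma fit on all 10 arrays used 1 variance per gene for both sides. Its p-values and 95% intervals therefore assume an equal spread, and a fit with separate variances was not run.

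**Figure D1:**
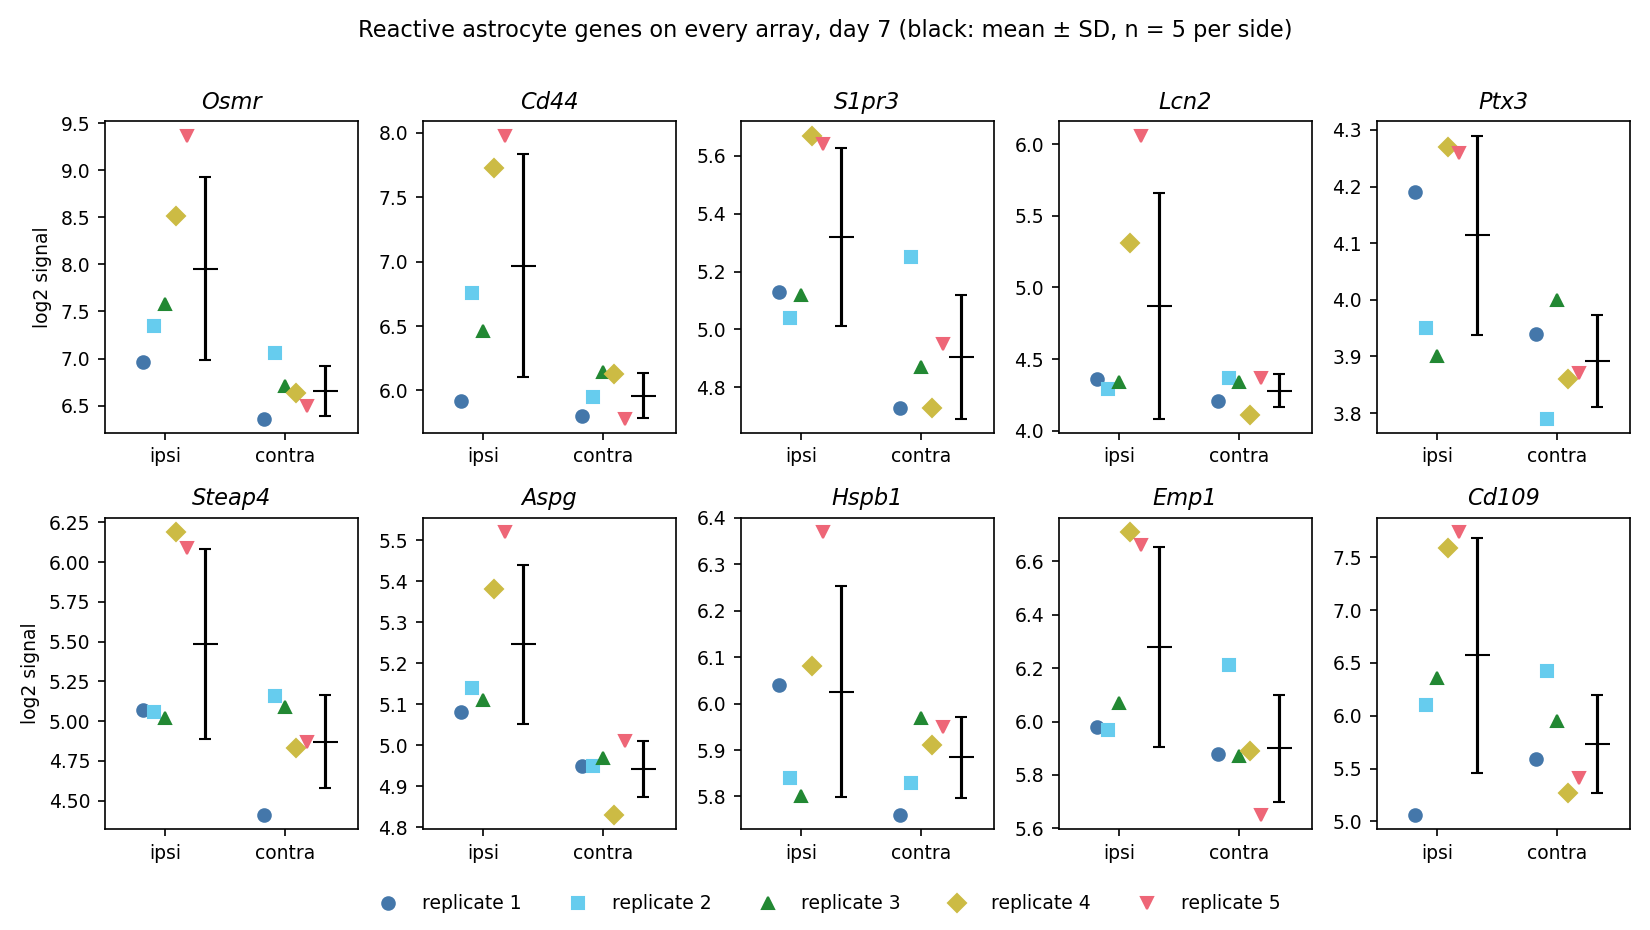
Log2 signal (vertical axis, own scale in each panel) of the 10 reactive astrocyte genes on the 5 ipsilateral and 5 contralateral arrays. Symbols and colours give the replicate number, and black bars the mean ± SD of each side. Ipsilateral replicates 4 and 5 are the highest points in every panel, and only in the panel of Aspg do the sides not overlap.

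Because the genes varied together over the arrays, the sequence before their RefSeq start sites was examined (GRCm38.p6, 250 bases before to 50 after the start). Windows were listed for 9 of the 10 genes, 10 windows in all, 2 of them for Emp1. Matches were sought on both strands for the STAT motif TTCNNNGAA, the AP-1 motif TGANTCA, the heat shock element GAANNTTC and the NF-κB motif. The STAT motif was present in 2 of these 10 windows and in 8.3% of the 32851 windows of all genes. The AP-1 motif was in 2 of 10 and in 7.81%, and the heat shock element in 1 of 10 and in 7.86%. The NF-κB motif was in 2 of 10 and in 4.51%. Counted by gene, these were 2, 2, 1 and 2 of 9. The 250 bases before the start are shown for Steap4, Emp1 and Hspb1, where matches lay, and for Osmr, which had the largest log2 fold change. Capitals mark the matches. In Steap4 the first and second are NF-κB matches and the third is a STAT match. In Emp1, in the first of its windows, they are an AP-1 match, a STAT match and an AP-1 match that overlaps a STAT match. In Hspb1 both are heat shock elements.
Steap4 (chr5:7960222-7960471, plus strand): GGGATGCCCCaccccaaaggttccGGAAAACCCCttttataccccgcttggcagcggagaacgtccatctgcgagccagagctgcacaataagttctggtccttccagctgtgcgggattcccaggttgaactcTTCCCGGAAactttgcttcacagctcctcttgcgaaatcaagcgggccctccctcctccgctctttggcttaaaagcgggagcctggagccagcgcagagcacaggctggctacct
Emp1 (chr6:135362681-135362930, plus strand): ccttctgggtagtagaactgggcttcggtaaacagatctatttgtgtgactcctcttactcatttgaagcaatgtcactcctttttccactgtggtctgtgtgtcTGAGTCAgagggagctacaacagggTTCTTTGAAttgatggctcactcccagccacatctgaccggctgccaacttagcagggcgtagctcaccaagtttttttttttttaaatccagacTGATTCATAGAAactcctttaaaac
Hspb1 (chr5:135887669-135887918, plus strand): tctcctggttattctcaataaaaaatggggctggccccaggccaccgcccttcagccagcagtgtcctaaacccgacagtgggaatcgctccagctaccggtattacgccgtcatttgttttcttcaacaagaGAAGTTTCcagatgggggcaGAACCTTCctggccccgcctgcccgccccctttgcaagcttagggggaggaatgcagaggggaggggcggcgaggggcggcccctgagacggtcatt
Osmr (chr15:6874314-6874563, minus strand): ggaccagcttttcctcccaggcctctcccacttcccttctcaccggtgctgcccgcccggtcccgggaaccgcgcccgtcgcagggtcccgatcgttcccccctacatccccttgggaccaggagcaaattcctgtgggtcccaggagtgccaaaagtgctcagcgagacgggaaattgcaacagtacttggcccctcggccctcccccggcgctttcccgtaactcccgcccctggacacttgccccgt
No capitals stand in the Osmr sequence, since its only match, to the AP-1 motif, lay in bases 4 to 10 after the start. Ptx3 had a pair of overlapping NF-κB matches, which began at the base before its start and at the first base after it. Lcn2, Cd44, S1pr3 and Aspg had no match in these windows. A match is a resemblance of letters only.

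Osmr, Cd44 and S1pr3 encode receptors or adhesion molecules of the cell surface. Osmr encodes the receptor chain that pairs with gp130 to bind oncostatin M, a cytokine of the interleukin 6 family. Its log2 signal was 6.96, 7.35, 7.58, 8.52 and 9.37 in ipsilateral replicates 1 to 5, and 6.36, 7.06, 6.71, 6.63 and 6.50 in contralateral replicates 1 to 5. All ipsilateral arrays but 1 exceeded every contralateral one, and ipsilateral replicate 1 lay below contralateral replicate 2. The log2 fold change was 1.30 ± 0.39 (SE), a 2.47-fold difference with a 95% interval of 1.35 to 4.51 (adjusted p = 0.0843 in limma).

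Cd44 encodes the main cell-surface receptor for the matrix sugar hyaluronan. It stood at 5.92, 6.76, 6.46, 7.73 and 7.98 ipsilaterally, against 5.80, 5.95, 6.14, 6.13 and 5.78 contralaterally. Ipsilateral replicate 1 was inside the contralateral range and the other 4 were above it. The means were 6.97 ± 0.87 and 5.96 ± 0.17 (SD, n = 5 each), 2.01-fold apart (95% interval 1.19 to 3.41, adjusted p = 0.122). The ipsilateral SD was 5.02 times the contralateral one.

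S1pr3 encodes a G protein-coupled receptor for the lipid sphingosine-1-phosphate. Signals were 5.13, 5.04, 5.12, 5.67 and 5.64 ipsilaterally and 4.73, 5.25, 4.87, 4.73 and 4.95 contralaterally. Ipsilateral replicates 4 and 5 were above all contralateral arrays, and the other 3 were below contralateral replicate 2. The sides differed by 0.41 ± 0.15 on the log2 scale (SE, adjusted p = 0.146). On contralateral replicate 1, S1pr3 and Steap4 lay below the array median.

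Lcn2 and Ptx3 encode secreted proteins of innate defence. Lcn2 encodes lipocalin 2, which binds bacterial iron carriers and is released by reactive astrocytes and by neutrophils. Its signal was 4.36, 4.29, 4.34, 5.31 and 6.06 on the ipsilateral arrays and 4.21, 4.37, 4.34, 4.11 and 4.37 on the contralateral arrays. Ipsilateral replicates 4 and 5 stood 0.94 and 1.69 above the highest contralateral array, while the other 3 ipsilateral arrays lay inside the contralateral range. Only those 2 of the 10 arrays had an Lcn2 signal above their own array median, so on the other 8 Lcn2 was not shown to exceed background and the size of the difference is not settled. The log2 fold change was 0.59 ± 0.31 (SE, adjusted p = 0.310), and 0.30 without ipsilateral replicate 5.

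Ptx3 encodes pentraxin 3, a soluble pattern-recognition protein that binds complement C1q. It lay below the array median on all 10 arrays, with 3.90 to 4.27 ipsilaterally and 3.79 to 4.00 contralaterally, so that it was not shown to exceed background. Ipsilateral replicates 1, 4 and 5 exceeded every contralateral one. Its difference was 0.22 ± 0.09 on the log2 scale (SE, adjusted p = 0.169).

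Steap4 and Aspg encode enzymes. Steap4 encodes a membrane metalloreductase that reduces iron and copper. Signals were 5.07, 5.06, 5.02, 6.19 and 6.09 ipsilaterally and 4.41, 5.16, 5.09, 4.83 and 4.87 contralaterally. Ipsilateral replicates 1, 2 and 3 fell inside the contralateral range, while replicates 4 and 5 were 1.03 and 0.93 above its top. The means differed 1.53-fold (95% interval 1.03 to 2.28, adjusted p = 0.208).

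Aspg encodes an asparaginase. It had the smallest p of the 10 genes although its difference was small. Signals were 5.08, 5.14, 5.11, 5.38 and 5.52 on the ipsilateral arrays and 4.95, 4.95, 4.97, 4.83 and 5.01 on the contralateral arrays. It was the only one of the 10 genes whose sides did not overlap, and 2.04% of all genes had all ipsilateral arrays above all contralateral ones. The log2 fold change was 0.30 ± 0.09 (SE), a 1.23-fold difference with a 95% interval of 1.08 to 1.42 (adjusted p = 0.0797). These signals were close to the array medians, which were themselves higher on every ipsilateral array (4.79 to 4.84 against 4.71 to 4.77). With those medians subtracted, ipsilateral replicate 1 no longer lay above contralateral replicate 5. The log2 fold change was then 0.23 (adjusted p = 0.157 in limma).

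Hspb1 encodes a small heat shock protein that protects the actin and intermediate filament skeleton, and it gave the smallest difference. Its signal was 6.04, 5.84, 5.80, 6.08 and 6.37 ipsilaterally and 5.76, 5.83, 5.97, 5.91 and 5.95 contralaterally. Ipsilateral replicates 1, 4 and 5 were above the contralateral range and replicates 2 and 3 were within it. The log2 fold change of 0.14 ± 0.10 (SE, adjusted p = 0.478) had a 95% interval of -0.09 to 0.37. It was 0.06 without ipsilateral replicate 5, 0.07 with arrays centred on their medians and 0.09 with quantile scaling.

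Emp1 and Cd109 encode membrane proteins. Emp1 encodes a tetraspan protein of the family of the peripheral myelin protein Pmp22. It ranged over 5.97 to 6.71 ipsilaterally and 5.65 to 6.21 contralaterally, and only ipsilateral replicates 4 and 5 (6.71 and 6.66) exceeded the contralateral maximum. Its log2 fold change was 0.38 ± 0.17 (SE, adjusted p = 0.230).

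Cd109 encodes a lipid-anchored relative of alpha-2-macroglobulin that dampens TGF-beta signalling. Its signal was 5.06, 6.10, 6.36, 7.59 and 7.74 ipsilaterally, and 5.59, 6.42, 5.95, 5.27 and 5.41 contralaterally. The lowest of all 10 values was ipsilateral replicate 1 and the highest were ipsilateral replicates 4 and 5. The log2 fold change was 0.84 ± 0.47 (SE, adjusted p = 0.340), and its 95% interval of -0.19 to 1.88 had the largest width among the 10 genes. Without ipsilateral replicate 5 the log2 fold change was 0.55, and without ipsilateral replicate 1 it was 1.22.

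**Figure D2:**
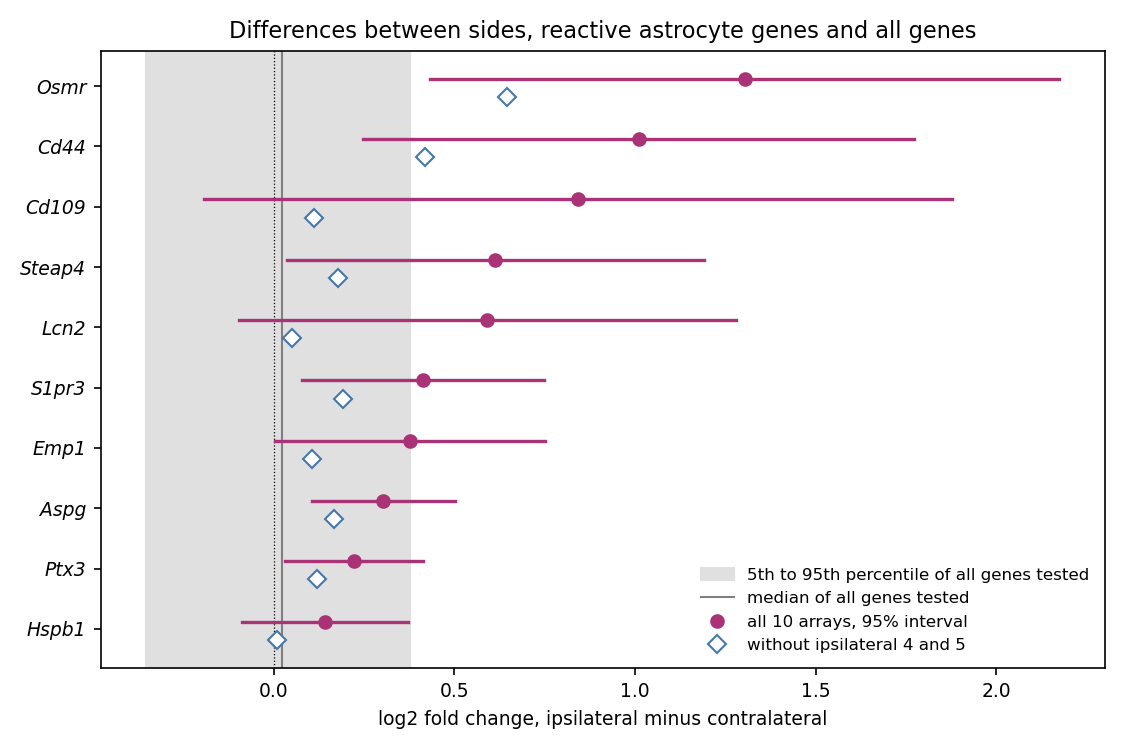
Log2 fold change (ipsilateral minus contralateral, horizontal axis) of the 10 genes. Filled circles with lines are the fit to all 10 arrays with its 95% interval, and open diamonds the fit without ipsilateral replicates 4 and 5. The grey band holds the 5th to 95th percentile of all genes tested (-0.35 to 0.38) in the fit to all 10 arrays. The diamonds of all but Osmr and Cd44 lie inside it, but they come from the other fit, for which no band is drawn.

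Leaving out arrays moved the calls and the sizes. Without ipsilateral replicate 1, which had the lowest mean of the 10 genes among the ipsilateral arrays, Cd44 (log2 fold change 1.27, adjusted p = 0.0273), Osmr (1.55, 0.0325) and Aspg (0.35, 0.0484) passed the test in limma. Over all alternatives but the omissions of replicates 4 and 5, their adjusted p ran from 0.0273 to 0.227, from 0.0325 to 0.179 and from 0.0484 to 0.157. Without ipsilateral replicates 4 and 5, a setting chosen after seeing the data, all 10 log2 fold changes stayed positive. They were smaller by construction, because these arrays were left out for holding the highest values of each gene. They were 0.64 ± 0.18 (SE) for Osmr, 0.42 ± 0.18 for Cd44, 0.19 for S1pr3, 0.18 for Steap4, 0.17 for Aspg, 0.12 for Ptx3, 0.11 for Emp1 and for Cd109, 0.05 for Lcn2 and 0.01 for Hspb1. The smallest adjusted p among them was 0.102, for Osmr. On the 3 remaining ipsilateral arrays, Osmr and Cd44 were thus still the genes with the largest differences. With the arrays numbered 4 and 5 left out on both sides, also chosen after seeing the data, 9 of the 10 stayed positive, and Cd109 turned to a log2 fold change of -0.15 (adjusted p = 0.908). The smallest adjusted p was then 0.284, for Osmr.

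The 10 genes followed one another over the arrays within each side as well. With the mean of each side subtracted, the correlation over the 10 arrays was positive for 45 of 45 pairs, with a median Pearson r of 0.82. It ran from 0.33 for Cd109 with Ptx3 to 0.96 for Aspg with Lcn2. Each gene was also set against the mean profile of the other 9, and r was highest for Lcn2 (0.96) and Osmr (0.94) and lowest for Hspb1 (0.75) and Ptx3 (0.60). These values describe genes read from the same 10 arrays, and ipsilateral replicates 4 and 5 weigh heavily in them. Symbols that begin with LOC or with Gm and a digit, or end in Rik, were left out of the comparison with other genes. Over the rest the median r with the mean profile was 0.05, and 2.0% of them exceeded 0.9.

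With the same symbols left out, the 6 genes outside the group whose deviations were most like that profile were Stat6, Ifi30, Col4a5, Slc16a1, Ifngr1 and Rassf2. Their r ran from 0.98 to 0.99 over 10 arrays. Ifi30, a lysosomal thiol reductase, stood at 7.39 ± 1.09 ipsilaterally and 6.02 ± 0.31 contralaterally (SD, n = 5 each), with a log2 fold change of 1.37 (adjusted p = 0.105). Ifngr1, a chain of the interferon-gamma receptor, had 0.67 (adjusted p = 0.0660) and Slc16a1, a lactate transporter, 0.57 (adjusted p = 0.200). Stat6, a transcription factor of interleukin 4 signalling, had a log2 fold change of only 0.10 (adjusted p = 0.727). Col4a5, a basement membrane collagen chain, had 0.21 (adjusted p = 0.186), and Rassf2, which has a Ras-association domain, -0.28 (adjusted p = 0.258). None of the 6 was called, so no difference between sides was shown for them. The only negative value was that of Rassf2.

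Other pan-reactive genes had a larger median difference and likewise no call. None of these 6 genes passed and all 6 had a positive log2 fold change, with a median of 1.44. Serpina3n, a secreted protease inhibitor, had 10.12, 11.95, 11.91, 13.57 and 15.64 ipsilaterally and 8.49, 11.10, 10.69, 8.01 and 9.27 contralaterally (log2 fold change 3.13 ± 0.96, SE, adjusted p = 0.0876). The intermediate filament genes Gfap and Vim differed by 2.07 ± 0.62 (adjusted p = 0.0814) and 2.06 ± 0.64 (adjusted p = 0.0937). In 5 of these 6 genes ipsilateral replicates 4 and 5 were again the 2 highest arrays.

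The measured genes of the published A1-type and A2-type sets gave no call. Of the 12 listed A1-type genes, C3, H2-T23 and Ggta1 had no row of their own and were not tested. All 9 measured A1-type genes had positive log2 fold changes (median 0.72), such as the complement inhibitor Serping1 (1.55, adjusted p = 0.105), the interferon-induced GTPase Iigp1 (0.72, adjusted p = 0.119) and the stress-hormone co-chaperone Fkbp5 (0.26, adjusted p = 0.0697). Of the 10 A2-type genes other than Ptx3, Emp1 and Cd109, 9 had positive values (median 0.18). The exception was Ptgs2, the inducible cyclooxygenase that neurons also make with activity, at -0.90 (adjusted p = 0.194). Stat3, a transcription factor of reactive astrocytes, stood at 0.38 (adjusted p = 0.0884) and the glycosyltransferase gene B3gnt5 at 0.22 (adjusted p = 0.154). The signals of B3gnt5 were below the array medians. The difference between the A1-type and A2-type lists was not tested.

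**Figure D3:**
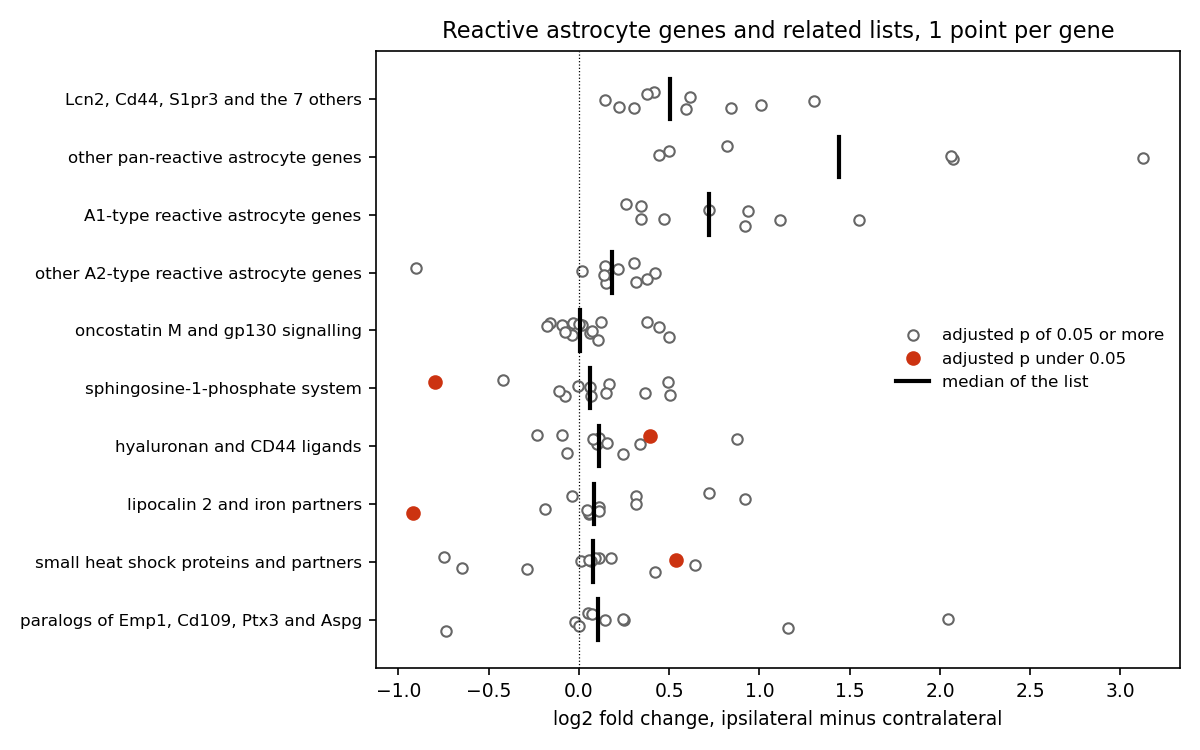
Log2 fold change (ipsilateral minus contralateral, horizontal axis) of the 10 reactive astrocyte genes (top row) and of 9 related gene lists. Each point is a gene, filled where its adjusted p was under 0.05, and the black bar is the median of the list. The medians are 0.50 for the 10 genes, 1.44 for the other pan-reactive genes, 0.72 for A1-type, 0.18 for other A2-type and 0.01 to 0.11 for the remaining lists.

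The partners of Osmr gave no call either. Of 16 measured genes of oncostatin M and gp130 signalling, 8 had a positive log2 fold change, against 55.8% of all genes. The median was 0.01, against 0.02 over all genes. The shared receptor chain gp130, encoded by Il6st, was at 12.33 ± 0.45 and 11.83 ± 0.20 (SD, n = 5 each; log2 fold change 0.50, adjusted p = 0.173), and the interleukin 6 receptor Il6ra at 7.00 ± 0.32 and 6.56 ± 0.17 (0.44, adjusted p = 0.111). The ligand gene Osm, at 3.88 ipsilaterally and 3.94 contralaterally, and the feedback inhibitor Socs3, at 4.38 and 4.32, lay below the array medians.

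Around the other receptors, single genes passed. Over all genes 5.55% were called in either direction. The calls of 1 gene per list, here and in the iron and heat shock lists below, were not tested against that share. Of 12 measured genes of the sphingosine-1-phosphate system, 1 fell and none rose: Sgpp2, a sphingosine-1-phosphate phosphatase, was at 8.30, 8.54, 8.44, 8.23 and 8.63 ipsilaterally and 9.23, 9.21, 9.38, 9.02 and 9.29 contralaterally (log2 fold change -0.80 ± 0.09, SE, adjusted p = 0.00152). The sides did not overlap, and ipsilateral replicates 4 and 5 were the lowest and the highest of the ipsilateral arrays. The receptor S1pr1, which dominates in endothelium, differed by -0.08 (adjusted p = 0.810). Of 11 measured genes of hyaluronan handling and CD44 linkage, 1 rose, the hyaluronan synthase Has2, with 6.02, 6.05, 5.89, 6.14 and 6.32 against 5.78, 5.64, 5.50, 5.68 and 5.86 contralaterally (0.39 ± 0.09, adjusted p = 0.0336). Its call ended without any one of ipsilateral replicates 2, 4 and 5 or contralateral replicates 1 to 4 (adjusted p from 0.0626 to 0.0852), without both ipsilateral replicates 4 and 5 (0.134), and with arrays centred on their medians (0.0559). The cytoskeletal linker Msn, moesin, had 0.88 (adjusted p = 0.171).

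Among 12 genes of lipocalin 2 partners and iron handling, 1 fell and none rose. The transferrin receptor Tfrc, which imports iron, was at 9.67 ± 0.37 ipsilaterally and 10.59 ± 0.21 contralaterally (SD, n = 5 each; log2 fold change -0.92 ± 0.17, SE, adjusted p = 0.0109). The lipocalin receptor Slc22a17 differed by 0.05 (adjusted p = 0.789), and the Steap4 paralogs Steap1, Steap2 and Steap3 by 0.11, 0.04 and 0.32 (adjusted p from 0.380 to 0.923). Of 12 measured small heat shock proteins and partners, 1 rose: Bag3, a co-chaperone of Hspb8, by 0.54 ± 0.13 (adjusted p = 0.0427). The Bag3 call ended without any one of ipsilateral replicates 2, 3 and 4 or any 1 contralateral replicate (adjusted p from 0.0547 to 0.108), without both ipsilateral replicates 4 and 5 (0.100), and with the arrays centred on their medians (0.0623) or quantile scaled (0.0527). Cryab, the alpha-B-crystallin relative of Hspb1, had -0.65 (adjusted p = 0.226).

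Of 10 relatives of Emp1, Cd109, Ptx3 and Aspg, none passed. The Emp1 paralog Emp3 had 7.39, 7.00, 7.43, 8.04 and 8.89 ipsilaterally and 6.16, 6.67, 6.69, 6.81 and 6.64 contralaterally, without overlap (log2 fold change 1.16 ± 0.30, SE, adjusted p = 0.0538). A2m, alpha-2-macroglobulin and a relative of Cd109, differed by 2.05 ± 0.78 (adjusted p = 0.163). Crp, a short pentraxin, differed by 0.24 (adjusted p = 0.190) at signals below the array medians.

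Markers of several cell types moved with the same arrays. In bulk tissue, fewer cells of a type and less RNA per cell cannot be told apart. The mean signal of 12 markers of microglia and macrophages was 8.26 to 10.39 on ipsilateral arrays and 7.84 to 8.65 on contralateral ones, with replicates 4 and 5 highest at 10.39 and 10.14. In all 12 of these markers those 2 arrays were the 2 highest of 10. The complement gene C1qb, for example, had 11.58, 12.39, 12.52, 14.16 and 14.00 ipsilaterally and 10.60, 11.86, 11.22, 10.38 and 11.45 contralaterally.

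Neutrophils, which also store Lcn2 and Ptx3 protein, had a marker mean of 4.34 to 4.84 ipsilaterally and 4.33 to 4.40 contralaterally, again highest on ipsilateral replicates 4 (4.84) and 5 (4.77). Of the 10 markers, Ly6g, Mmp8, Ngp, Elane and Mpo lay below the array median on all 10 arrays. The brightest, the growth factor receptor Csf3r, which microglia also express, stood at 6.79 ± 0.60 and 6.03 ± 0.27 (SD, n = 5 each), and the granule protein gene S100a9 at 5.59 ± 0.44 and 5.41 ± 0.20.

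The 11 measured astrocyte identity genes averaged 10.79 to 11.42 ipsilaterally and 10.74 to 10.90 contralaterally, with replicates 4 and 5 at 11.22 and 11.42. Their median log2 fold change was 0.13. Of these 1 rose, the water channel Aqp4, by 0.95 ± 0.18 (SE, adjusted p = 0.0117), named after its value was seen. Slc1a2, the main glutamate transporter, and Aldoc, an astrocytic glycolysis enzyme, differed by -0.15 (adjusted p = 0.454) and 0.13 (adjusted p = 0.565).

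The fibroblast and meningeal list averaged 7.11 to 8.47 ipsilaterally and 6.18 to 6.93 contralaterally, highest on ipsilateral replicate 5. Pericyte and smooth muscle markers had 7.10 to 8.22 and 7.01 to 7.35, and endothelial markers 8.14 to 8.74 and 8.23 to 8.64. For neuronal markers the values were 13.48 to 14.06 and 13.81 to 14.02, with ipsilateral replicates 4 and 5 lowest at 13.48 and 13.49. Oligodendrocyte markers had 9.55 to 10.60 and 10.01 to 11.14. Of the microglia and macrophage, neutrophil, endothelial and pericyte markers none passed the test. Of 9 fibroblast and meningeal genes 3 rose, Dcn by 2.88, Col1a1 by 0.80 and Crabp2 by 0.54 (adjusted p from 0.0250 to 0.0398). Crabp2, at 5.14 ipsilaterally and 4.60 contralaterally, was close to the array medians. It lay below them on contralateral replicates 1, 2, 3 and 5 and on ipsilateral replicate 2, so there it was not shown to exceed background. Their calls ended without single arrays, that of Dcn without ipsilateral replicate 2, 4 or 5 or contralateral replicate 1, 3 or 5 (highest adjusted p 0.0672), that of Col1a1 without ipsilateral replicate 3 or 4 or any contralateral replicate (up to 0.0963) and with quantile scaling (0.0509), and that of Crabp2 without ipsilateral replicate 1 or 4 or contralateral replicate 1, 2, 3 or 5 (up to 0.101), with arrays centred on their medians (0.0579) and with quantile scaling (0.0624). Without both ipsilateral replicates 4 and 5 the calls of Dcn (0.112) and Crabp2 (0.0998) ended as well. Of 11 neuronal genes 3 fell, Rbfox3 (-0.54), Nefl (-0.89) and Nefm (mean signal 7.24 ipsilaterally and 8.23 contralaterally; adjusted p from 0.00663 to 0.0166), and of 8 oligodendrocyte genes 1 fell, Opalin (-1.52, adjusted p = 0.0164). Another 4 neuronal genes had positive log2 fold changes without a call, Gad2 (0.60), Gad1 (0.21), Map2 (0.14) and Tubb3 (0.05). The median of the neuronal list was -0.13. Without contralateral replicate 1, Nefl (0.0521) and Opalin (0.0526) did not pass, and neither did Nefl without ipsilateral replicates 4 and 5 (0.0618). The genes not yet named among the 2 brightest of each list were not called (adjusted p from 0.102 to 0.989 in limma). Log2 fold changes were 0.90 for Csf1r, 0.01 for Slco1a4, -0.36 for Flt1, 0.21 for Rgs5 and 0.38 for Pdgfrb. They were 1.47 for Igf2, -0.24 for Syt1, -1.21 for Mobp and -0.64 for Mbp. What part these cell types had in the differences of the 10 genes was not tested.

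**Figure D4:**
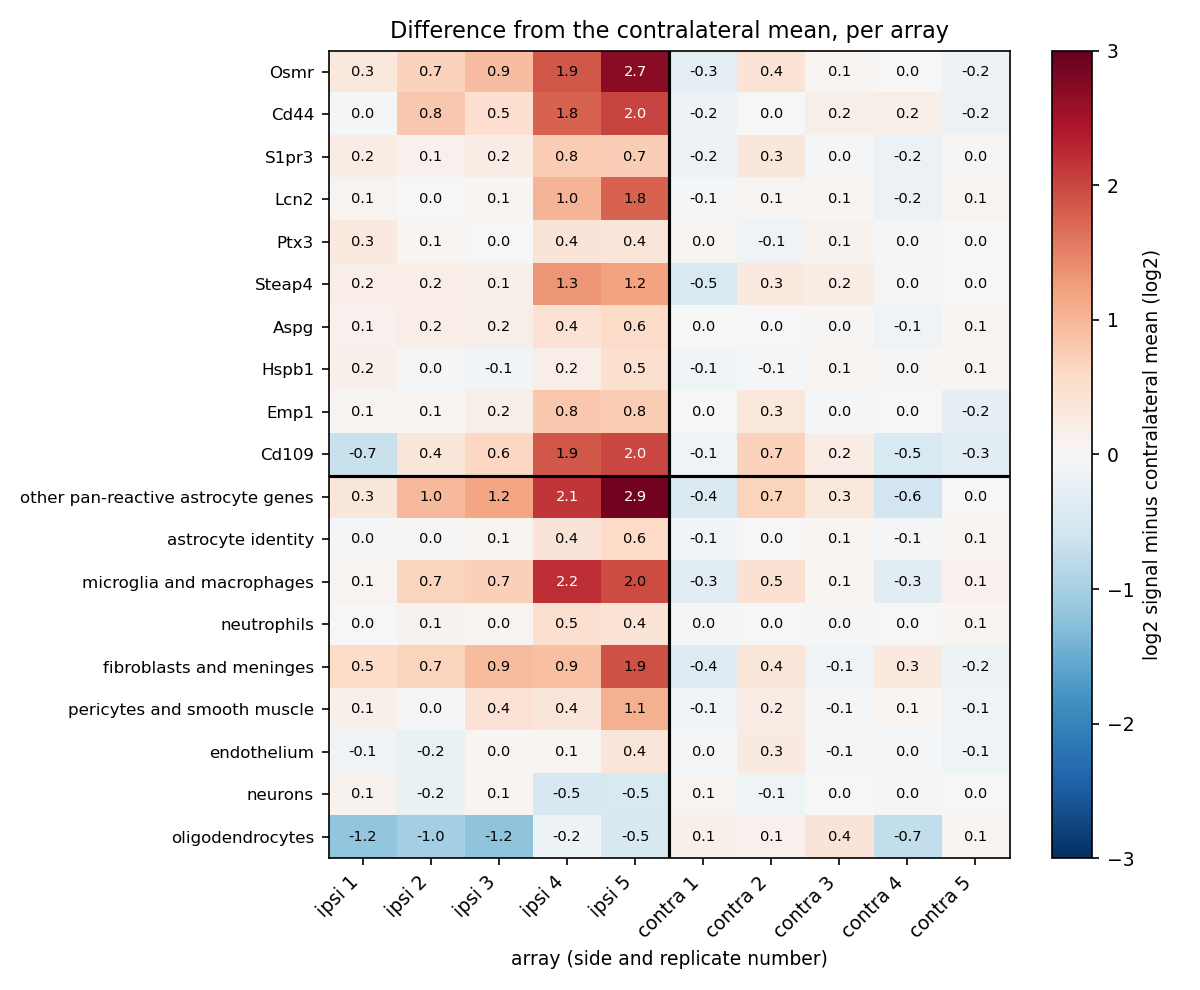
Signal of the 10 reactive astrocyte genes (above the line) and mean signal of 9 marker lists (below it) on each array, as the difference from the contralateral mean on the log2 scale, with red for higher and blue for lower. Ipsilateral replicates 4 and 5 are the darkest red columns for the 10 genes, for the other pan-reactive genes and for microglia and macrophages, and are below the contralateral mean for neurons.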

How the data were processed

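The deposited table held log2 signals for 10 arrays, which the authors made in Transcriptome Analysis Console 4.0 according to the submitters' processing notes. RNA was isolated with a column kit and single-stranded cDNA was prepared for the array, per the labels' protocols. How signals were background-corrected, normalized and summarized, and on which genome build, is not given in the sources used here. All columns were mapped to samples by their labels, and no pair of arrays was identical. Batch was not given in the labels.

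Of 65956 rows, 30604 named 1 gene symbol, and the brightest row per gene (10-array mean) was kept, which gave 30142 genes. Symbols were updated through Entrez identifiers from RefSeq (GRCm38.p6), with 22818 rows matched. Ipsilateral minus contralateral differences were fitted in limma 3.58.1 (R 4.3.3) with lmFit and eBayes at default settings, two-sided, on all 10 arrays without covariates. A call needed an adjusted p (Benjamini-Hochberg over all genes) under 0.05. The fit was checked on simulated data with independent genes and the same spread on both sides. That check cannot show how the fit behaves where the spread is unequal or genes vary together, as here. Promoter windows are RefSeq's.

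The genes and lists were chosen with earlier results of these data known. Named genes are all 10 of the group, called genes of each pathway list (or the 3 with the largest moderated statistic), the 2 brightest of each cell type list, and the 6 most similar profiles. Further list genes (such as Osm, Socs3, S1pr1, Msn, Slc22a17, the Steap paralogs, Cryab, and the neutrophil markers) were named after their values were seen. So were Gad1, Gad2, Map2 and Tubb3, and the called cell type genes other than Dcn, which is among the 2 brightest of its list. Listed genes without a row of their own were not analysed here. Alternatives were the replicate number as fixed or random block, median and quantile scaling, trended robust variance, array weights, genes brighter than the median gene, the mean of rows, every row, each array left out, and a threshold of 0.01. Added after seeing the data were the omission of ipsilateral replicates 4 and 5 and the omission of replicates 4 and 5 from both groups. A fit without ipsilateral replicates 1, 2 and 3 was also run after seeing the data and called more of the 10 genes. It was not kept, because it sets arrays picked for their high values against the contralateral side. Replicates 4 and 5 were left out on the basis of the same values.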

Additional observations from a re-analysis of the deposited data

How the results depend on the processing

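Of the 10 reactive astrocyte genes, 0 were called on all 10 arrays, 1 with array weights (Osmr, adjusted p = 0.0492), and 0 to 3 when single arrays were left out, 3 without ipsilateral replicate 1. Every log2 fold change stayed positive in all 195 combinations of gene and alternative, and in the 10 fitted values without ipsilateral replicates 4 and 5. Many of the 195 could not have changed sign. The replicate blocks, trended robust variance, brighter genes, mean of rows, every row and the threshold of 0.01 left these log2 fold changes exactly as they were. Of the 195, 191 left the gene not called, as on all 10 arrays, and 4 gained a call. With arrays numbered 4 and 5 left out on both sides (also after seeing the data), Cd109 reversed to -0.15, the other 9 stayed positive, none of the 10 was called, and calls over all genes became 131 upward and 411 downward. In that setting the calls of Tfrc (adjusted p = 0.0622), Rbfox3 (0.131), Nefl, Has2, Bag3, Dcn, Col1a1 and Crabp2 ended, and those of Sgpp2, Nefm, Opalin and Aqp4 held. Among genes brighter than the median gene, 5 of the 10 were tested. The 7 genes at an unadjusted p under 0.05 became 3 with arrays centred on their medians and 5 with quantile scaling. Over all genes, calls upward (369) became 177 with the fixed replicate block, 232 with arrays centred on their medians, 656 with array weights, 47 at a threshold of 0.01, 188 without ipsilateral replicates 4 and 5 (after seeing the data), and 111 to 760 with single arrays left out. Calls downward (1305) became 769, 2623, 537 and 615 with the fixed block, median centring, the threshold of 0.01 and the omission of ipsilateral replicates 4 and 5, and 740 to 1607 with single arrays left out. No pairing by replicate number was detected, and whether equal numbers mark 1 mouse is not given in the labels: the correlation of same-numbered deviations from the side means was 0.26, 0.25, -0.04, -0.40 and -0.03 for replicates 1 to 5, so the block is only a check. With the fixed block the calls of Nefl (0.0629), Opalin (0.0933), Col1a1 (0.112) and Bag3 (0.102) were not made. The cause of these changes was not tested. Measured by the array median, signal over background limits Ptx3 on all arrays, Lcn2 on 8 of 10, and S1pr3 and Steap4 on 1. No detection call was used, so a signal just above the median is not shown to exceed background either. That holds for Aspg on all arrays, and for S1pr3 and Steap4 on most. These genes, like Lcn2 and Ptx3, were not among those brighter than the median gene.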
